A study of Mus musculus with 9 samples.

Results

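The genes described are 10 of the classical histone deacetylases of the mouse, Hdac1 to Hdac9 and Hdac11, taken by their symbols from 2 tables of 24015 gene rows each. All 10 had a row, a mean count above 50 and an adjusted p in both tables. RNA was measured in the microdissected dentate gyrus, whose principal cells are granule neurons, of C57BL/6 mice that were 8 weeks old. There were 3 groups, named E0, E1 and E4, with 3 libraries of total RNA each. The sample titles number the replicates and do not say whether each library came from 1 mouse. The labels name no genotype, and the numbers in the group names have no unit there. Background on the study is that E0 mice were not stimulated, and E1 and E4 mice were taken 1 h and 4 h after electroconvulsive stimulation, which makes granule neurons fire together. Each table holds the authors' comparison of 1 stimulated group with E0. It lists, for every gene, the normalised count averaged over the libraries, the log2 fold change with the standard error (SE), and the adjusted p-value. A gene is said to have risen or fallen where this adjusted p was below 0.05. Values of single libraries are not given, so no spread over mice or libraries can be shown, and both comparisons share the E0 libraries.

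Histone deacetylases remove acetyl groups from lysines of histones and other proteins, and histone deacetylation goes with a closed chromatin state. Class I enzymes (Hdac1, Hdac2, Hdac3, Hdac8) are mostly nuclear, and all but Hdac8 work as the catalytic subunits of corepressor complexes. Class IIa enzymes (Hdac4, Hdac5, Hdac7, Hdac9) bind MEF2 transcription factors, have little catalytic activity of their own, and leave the nucleus when calcium-activated kinases phosphorylate them and 14-3-3 proteins bind, so that neuronal firing acts on them at the protein level. Hdac6, of class IIb, is mainly a cytoplasmic deacetylase of tubulin, and Hdac11 is the only class IV enzyme.

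Some members rose and others fell in both E1 and E4, as genes did over all genes tested, and the members called were not the same at both times. In E1, Hdac9 rose, Hdac1 and Hdac2 fell, and 7 of the 10 were not called, so that 30% of the members were called where 35.5% of all 15660 genes tested were (20.6% higher, 15% lower). In E4, Hdac2, Hdac3, Hdac5 and Hdac6 rose, Hdac1, Hdac4, Hdac9 and Hdac11 fell, and Hdac7 and Hdac8 were not called. That is 80% of the members, where 39% of the 14455 genes tested were called (20.7% higher, 18.3% lower). The changes were small, between 1.18-fold (Hdac3) and 1.37-fold (Hdac2) for the rises in E4, and between 1.44-fold (Hdac4) and 2.15-fold (Hdac11) for the falls. The median log2 fold change of the 10 was 0.04 in E1 and -0.35 in E4, beside 0.02 and -0.01 over all genes tested.

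**Figure D1:**
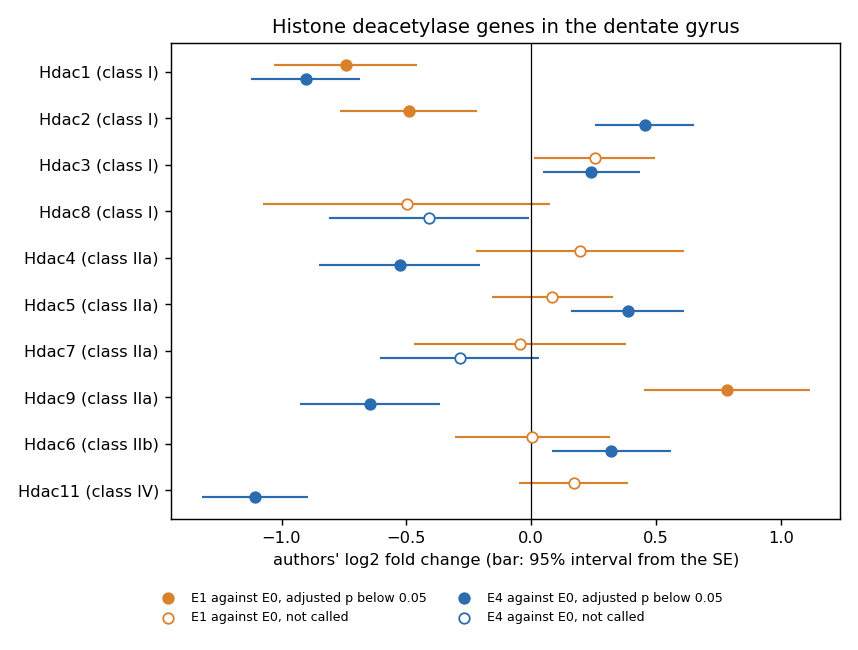
The x axis is the authors' log2 fold change of E1 (orange) and E4 (blue) against E0 for each gene, with bars for the 95% interval computed from the SE and filled points for an adjusted p below 0.05. Hdac11 has the lowest point, at -1.11 in E4, while Hdac2 and Hdac9 each have filled points on both sides of 0.

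Stretches upstream of the annotated starts are printed for 4 of the members whose RNA changed at one time or at both. Those of Hdac4 and Hdac6, which were called in E4, are not printed but were searched. All stretches come from RefSeq (build GRCm38.p6, not the mm9 build of the counts), in which 8 of the 10 members matched, while Hdac1 and Hdac3 did not. Each is the part of the 250 bases before a RefSeq start that lies in no GENCODE M21 exon. Capitals mark matches to the motifs searched on both strands, which were TGACGTCA (CRE), TGACG (short CRE), TGANTCA (AP-1), GCGNGGGCG (EGR), GGGCGG (GC box), CCAAT, and the MEF2 site and the CArG box by name. The short CRE is part of every CRE. The 2 stretches of Hdac9 belong to separate starts, whose transcripts the gene row does not tell apart. Those are chr12:34528890-34529139 and chr12:34917096-34917345, both on the minus strand. The others are chr11:102230173-102230422 on the minus strand for Hdac5, chr10:36974294-36974543 on the plus strand for Hdac2, and chr6:91156565-91156664 on the plus strand for Hdac11.
Hdac9, first stretch: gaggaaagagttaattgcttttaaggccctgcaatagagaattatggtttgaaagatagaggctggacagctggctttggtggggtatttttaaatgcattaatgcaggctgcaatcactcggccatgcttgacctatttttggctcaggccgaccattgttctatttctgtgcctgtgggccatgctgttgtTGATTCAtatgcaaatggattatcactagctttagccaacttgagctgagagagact
Hdac9, second stretch: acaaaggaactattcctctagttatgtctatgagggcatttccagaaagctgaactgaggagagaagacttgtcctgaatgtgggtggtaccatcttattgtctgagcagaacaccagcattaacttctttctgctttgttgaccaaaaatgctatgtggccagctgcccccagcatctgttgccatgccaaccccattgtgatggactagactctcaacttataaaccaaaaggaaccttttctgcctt
Hdac5: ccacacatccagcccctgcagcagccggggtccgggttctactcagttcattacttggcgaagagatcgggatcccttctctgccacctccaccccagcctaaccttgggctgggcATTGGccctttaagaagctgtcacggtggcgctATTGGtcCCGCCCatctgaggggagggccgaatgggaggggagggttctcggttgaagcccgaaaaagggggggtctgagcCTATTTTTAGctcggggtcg
Hdac2: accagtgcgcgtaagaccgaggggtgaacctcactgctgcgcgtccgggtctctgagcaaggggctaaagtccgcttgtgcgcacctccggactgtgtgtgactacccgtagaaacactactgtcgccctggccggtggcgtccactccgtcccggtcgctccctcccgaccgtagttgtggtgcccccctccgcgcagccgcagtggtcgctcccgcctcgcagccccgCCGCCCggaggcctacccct
Hdac11: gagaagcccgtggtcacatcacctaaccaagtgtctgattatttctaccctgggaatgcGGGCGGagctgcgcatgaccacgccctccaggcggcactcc

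The first stretch of Hdac9 holds 1 match to the AP-1 letters TGANTCA, in which N is any base. It is TGATTCA, with T at that open place, 57 to 51 bases before the start. The second stretch holds none of the motifs. An AP-1 match was present in 6.75% of 32851 windows of 250 bases over all genes. The Hdac5 stretch holds a MEF2 match, CTATTTTTAG, 20 to 11 bases before the start, a match found in 0.508% of the windows. The full CRE (1.55% of all windows), the EGR motif (4.7%) and the CArG box (1.47%) were in none of the 12 windows of the members. GC boxes were in 6 of the 12, against 32.7% of all windows. The short CRE was in 2 of the 12, those of Hdac4 and Hdac11, against 17.8%. In Hdac11 it lies 109 to 105 bases before the start, outside the printed stretch. CCAAT was in 5 of the 12, against 33.8%. The 12 windows belong to 8 members, of which Hdac7 and Hdac9 have more than 1. The windows of Hdac9 were 43.6% and 44.4% G or C with 2 and 0 CpG, while that of Hdac2 was 68.8% with 27 CpG and that of Hdac5 60.8% with 12. The median over all windows was 52.4% with 6 CpG. These are matches of letters and not measured binding.

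The level of each gene in each group was computed from the mean count and fold change that the authors deposited, brought to the scale of the E4 table, and divided by the length of merged exons in the basic set of GENCODE M21, which leaves out partial transcripts of a gene that has full ones. Levels below are such normalised counts per kb of exon and are group means without an SE. The E0 level computed from either table differed by a factor of 0.978 to 1.01 for the 10 members. Hdac11 was highest in E0, at 480 per kb, followed by Hdac1 at 347, Hdac3 at 344, Hdac2 at 243, Hdac5 at 215 and Hdac6 at 127. Hdac8 stood at 62.7, Hdac7 at 48.4, Hdac9 at 28.2 and Hdac4 at 24.3. Since no spread over mice is given, neighbours in this order cannot be separated by a test. Levels per kb also depend on the length used, and 2 other lengths were tried after the data were seen. Over all annotated exons, Hdac11 stood at 331 per kb in E0, Hdac2 at 230, Hdac1 at 205 and Hdac3 at 173. Per kb of the longest annotated transcript, Hdac3 stood at 195 and Hdac2 at 316. With each of the 3 lengths Hdac11 was highest and Hdac4 lowest in E0, while the order of Hdac1, Hdac2, Hdac3 and Hdac5 and that of Hdac7 and Hdac8 changed. In E4 Hdac11 was the fourth with each length, at 222 per kb, after Hdac3 (407), Hdac2 (333) and Hdac5 (282), and Hdac2 was the first with the other lengths. The 4 class I genes together held 51.9% of the summed level in E0, 45% in E1 and 56.9% in E4, and Hdac11 alone 25%, 29.2% and 13%. The class I level itself was 997 per kb in E0, 835 in E1 and 973 in E4, so with this length its larger share in E4 was not a higher level. That depended on the length. Over all annotated exons class I held 50.2% of 1259.5 per kb in E0 and 56.5% of 1145.4 in E4, a slightly higher level. Per kb of the longest transcript it held 49.9% of 1827.6 in E0 and 55.1% of 1615.4 in E4, not a higher level. The sum over all 10 members was 1919 per kb in E0, 1854 in E1 and 1710 in E4.

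**Figure D2:**
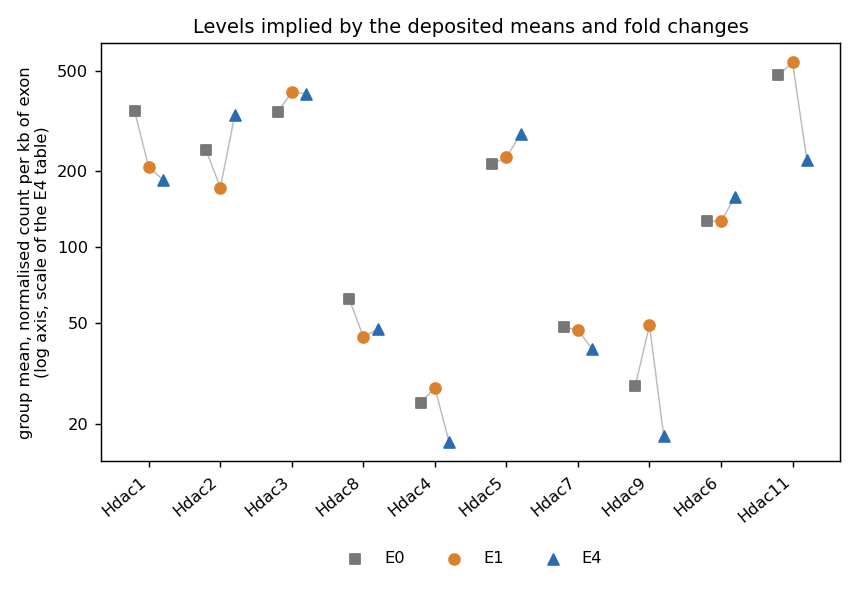
The y axis (log scale) is the group mean in normalised counts per kb of exon, computed from the deposited means and fold changes, for E0 (grey squares), E1 (orange circles) and E4 (blue triangles). Hdac11 goes from 480 and 540 per kb in E0 and E1 to 222 in E4, and Hdac9 from 28.2 to 49.2 and 17.8.

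Among the class I genes, Hdac1, a catalytic subunit of the Sin3, NuRD and CoREST complexes, was the member that fell in each comparison. Its level was 347 per kb in E0, 207 in E1 and 185 in E4. Its log2 fold change in the authors' deposited table was -0.74 ± 0.15 (SE, adjusted p = 3e-06) in E1, or 59.7% of the E0 level. For E4, the authors' deposited table gave -0.90 ± 0.11 (adjusted p = 7.4e-15), or 53.5% of E0. The reads of Hdac1 are uncertain, because a processed pseudogene copy (Gm10093, also named Hdac1-ps) was identical to it in 99.4% of 1444 aligned bases, which cover 70.9% of its longest transcript. How reads that fit both places were counted is not given in the sources used here.

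Hdac2, the close paralog of Hdac1 in the same complexes, which restrains synapse formation and memory in mouse neurons, went the other way at the later time. Its level was 243 per kb in E0, 172 in E1 and 333 in E4. The log2 fold change of Hdac2 in the authors' deposited table for E1 was -0.49 ± 0.14 (adjusted p = 0.0021), or 71.2% of E0, and in that for E4 it was 0.45 ± 0.10 (adjusted p = 4.1e-05), or 137% of E0. So Hdac2 stood below E0 in one table and above it in the other.

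Hdac3, the enzyme of the NCoR complex, moved least among the members that were called. For E1, the authors' deposited table gave a log2 fold change of 0.25 ± 0.12 (adjusted p = 0.095), which was not called. The value in the authors' deposited table for E4 was 0.24 ± 0.10 (adjusted p = 0.04), or 118% of E0, with a 95% interval of 103% to 135%. That call was lost when the fold changes were centred on their median (0.21, adjusted p = 0.077). Hdac8, which works outside such complexes, had the lowest mean count of the 10 in the authors' deposited table for E1, at 54.6. Its log2 fold change was -0.50 ± 0.29 in E1 (adjusted p = 0.18) and -0.41 ± 0.20 in E4 (adjusted p = 0.10) in the authors' deposited table. It was not called at either time, and its intervals run from -1.07 to 0.08 in E1 and from -0.81 to -0.01 in E4, so that a fall to 47.5% of E0 in E1 lies within the error.

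Of the class IIa genes, Hdac9, whose short splice form MITR lacks the catalytic domain, was the only member that rose in E1. Its level was 28.2 per kb in E0, 49.2 in E1 and 17.8 in E4. The authors' deposited table for E1 gave a log2 fold change of 0.78 ± 0.17 (adjusted p = 2.7e-05), or 172% of E0. The value in the authors' deposited table for E4 was -0.65 ± 0.14 (adjusted p = 4.1e-05), or 63.9% of E0. The rows do not separate MITR from the full-length form.

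Hdac5, a class IIa enzyme that shuttles with neuronal activity, was the most abundant of its class, at 215 per kb in E0, 227 in E1 and 282 in E4. The E1 comparison in the authors' deposited table gave a log2 fold change of 0.08 ± 0.12 (adjusted p = 0.65), and the E4 comparison gave 0.39 ± 0.12 (adjusted p = 0.003), or 131% of E0. Hdac4, which is needed for learning and memory in mice, was the least abundant member in E0, at 24.3 per kb. Hdac4 stood in the authors' deposited table for E1 at 0.19 ± 0.21 (adjusted p = 0.53), and in that for E4 at -0.53 ± 0.16 (adjusted p = 0.005), or 69.4% of E0. The annotated exons of Hdac4 in the full GENCODE M21 annotation share 22.4% of their bases with Gm26720, a gene on the other strand. Whether reads in the shared part were told apart is not known, because the sources used here do not say whether strand was used in counting. Hdac7, known from endothelial cells and thymocytes, was not called, at -0.04 ± 0.22 (adjusted p = 0.91) in E1 and -0.29 ± 0.16 (adjusted p = 0.16) in E4 in the authors' deposited table. Its 95% interval in E4, from -0.61 to 0.03, takes in the size of the fall of Hdac4.

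Hdac6 had a log2 fold change of 0.01 ± 0.16 (adjusted p = 0.99) in E1 and of 0.32 ± 0.12 (adjusted p = 0.023) in E4, or 125% of E0, in the authors' deposited table. The other class IIb gene, Hdac10, is not one of the 10. It stood at 0.20 ± 0.29 in E1 (adjusted p = 0.65) in the authors' deposited table and at -0.92 ± 0.24 in E4 (adjusted p = 0.00053), so that the class IIb genes were called in opposite directions in E4.

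Hdac11, an enzyme that also removes long fatty acyl groups, fell furthest of the 10. Its level was 480 per kb in E0, 540 in E1 and 222 in E4. Hdac11 had a log2 fold change of 0.17 ± 0.11 (adjusted p = 0.24) in E1 in the authors' deposited table, and in E4 it was -1.11 ± 0.11 (adjusted p = 7.3e-23), or 46.4% of E0 with a 95% interval of 40.1% to 53.8%. By its p-value it was the 361st gene of the E4 table. Its exons in the full annotation share 15.4% of their bases with Gm44002 and 2.49% with Gm14573, both on the other strand. Of 7746 other genes whose mean count reached 100 in each table, those nearest to Hdac11 in the pair of log2 fold changes were Tppp, Slc25a27 and Dync1i1, at distances of 0.03, 0.04 and 0.06. Their values in the authors' deposited table for E4 were -1.08 ± 0.08, -1.15 ± 0.15 and -1.13 ± 0.10.

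**Figure D3:**
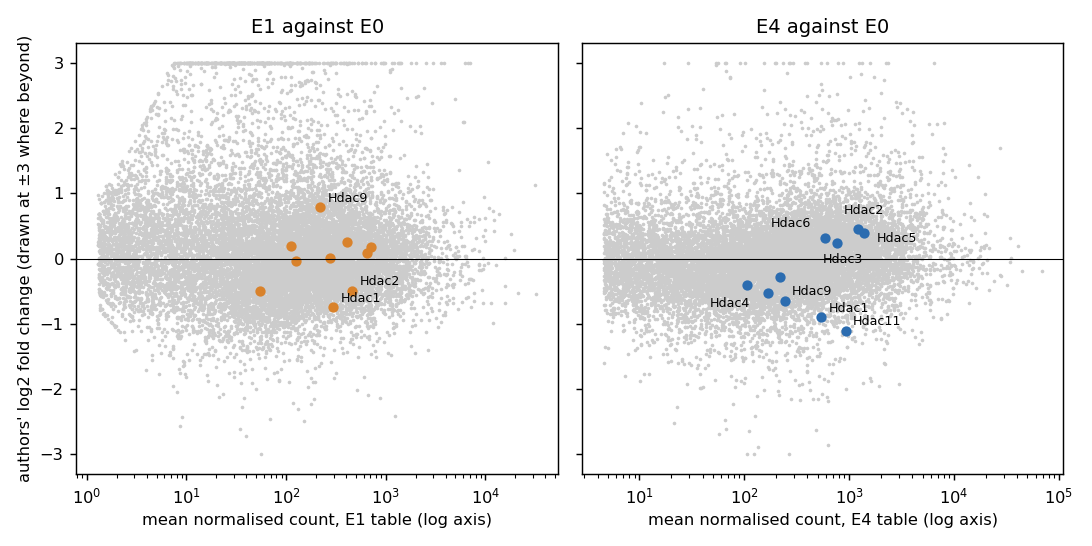
Each grey point is a gene with an adjusted p, by its mean normalised count (x axis, log scale) and the authors' log2 fold change (y axis), for E1 (left) and E4 (right), and coloured points are the 10 deacetylase genes, named where called. Hdac11 and Hdac1 lie lowest among the members in E4, at -1.11 and -0.90.

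E4 was set against E1 by the difference of the log2 fold changes in both tables, divided by an error that adds their squared SEs, and p-values were adjusted over the 12769 genes whose mean count reached 10 in each table. The error leaves out that E0 is shared, which makes the error too large. Of the 10 members 1 was higher and 3 were lower in E4 than in E1, and 36.7% of all genes were called (17.7% higher, 19% lower). Hdac9 differed most, with a difference of -1.43 ± 0.22 (adjusted p = 2e-09), or 2.7-fold lower in E4. Hdac11 followed at -1.28 ± 0.16 (adjusted p = 7.7e-15), or 2.42-fold lower. Hdac4 was lower by a log2 difference of -0.72 ± 0.27 (adjusted p = 0.023), and Hdac2 was 1.93-fold higher in E4, at 0.95 ± 0.17 (adjusted p = 4.8e-07). For Hdac1 the difference was -0.16 ± 0.18 (adjusted p = 0.53) with an interval from -0.52 to 0.20, and for Hdac3 it was -0.01 ± 0.16 (adjusted p = 0.96). Hdac5 (0.30 ± 0.17, adjusted p = 0.15) and Hdac6 (0.32 ± 0.20, adjusted p = 0.21) were called in E4 and not in E1, but their change from E1 to E4 was not called.

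The subunits that class I enzymes work with were read in 5 complexes, with 45 genes tested. In E1 13 of these rose and 7 fell, with 25 not called. In E4 17 rose and 8 fell, with 20 not called. That is 44.4% and 55.6% called, where 35.5% and 39% of all genes tested were, with medians of 0.09 and 0.11 beside 0.02 and -0.01. In the Sin3 complex 6 of 17 rose and 1 fell in E1, and 7 rose and 2 fell in E4. Rbbp7, a histone-binding subunit of both Sin3 and NuRD, had the largest change there in E4, a 3.4-fold rise (1.77 ± 0.12), and also rose in E1 (0.73 ± 0.12) in the authors' deposited table. The scaffold Sin3b stood at 0.47 ± 0.15 and 0.72 ± 0.13, and Arid4b at 0.68 ± 0.18 and 0.64 ± 0.13, in the authors' deposited table.

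In the NuRD complex, which joins deacetylation with chromatin remodelling, 3 of 11 rose and 2 fell in E1, and 4 rose and 4 fell in E4. That is 45.5% and 72.7% called, beside 35.5% and 39% of all genes tested. Rbbp7 and Rbbp4 were counted with Sin3 alone and are not among the 11. Both rose in E4, at 1.77 ± 0.12 and 0.29 ± 0.10 in the authors' deposited table. Of the remodelling ATPases, Chd3 (-0.44 ± 0.09 in E1, -0.23 ± 0.08 in E4) and Chd4 (-0.37 ± 0.11 and -0.23 ± 0.08) fell in the authors' deposited table at both times. Chd5 rose in E1 (0.28 ± 0.11) and fell in E4 (-0.36 ± 0.09) there. Mbd2, which binds methylated DNA, rose in E1 and E4 (0.69 ± 0.17 and 0.61 ± 0.11), and Mta3 fell in E4 at -0.83 ± 0.12, in the authors' deposited table. In the CoREST complex 2 of 10 rose and 3 fell in E1, and 5 rose and 1 fell in E4 (50% and 60% called). Its histone demethylase Kdm1a rose 1.64-fold in E4 (0.71 ± 0.10), and Rcor2 went from a fall of -1.27 ± 0.25 in E1 to a rise of 0.35 ± 0.14 in E4 in the authors' deposited table.

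Of 4 genes of the NCoR complex, Tbl1x and Tbl1xr1 rose in E1, at 1.03 ± 0.24 and 0.49 ± 0.13 in the authors' deposited table. In E4 these stood at -0.12 ± 0.20 and -0.11 ± 0.10 in the authors' deposited table, and none of the 4 was called by the authors' DESeq2 test or had an unadjusted p below 0.05. Of the 3 MiDAC genes, the scaffold gene Elmsan1 fell in E1 at -1.35 ± 0.17, and in E4 Dnttip1 rose (0.62 ± 0.16) while Trerf1 fell (-0.42 ± 0.14), in the authors' deposited table.

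**Figure D4:**
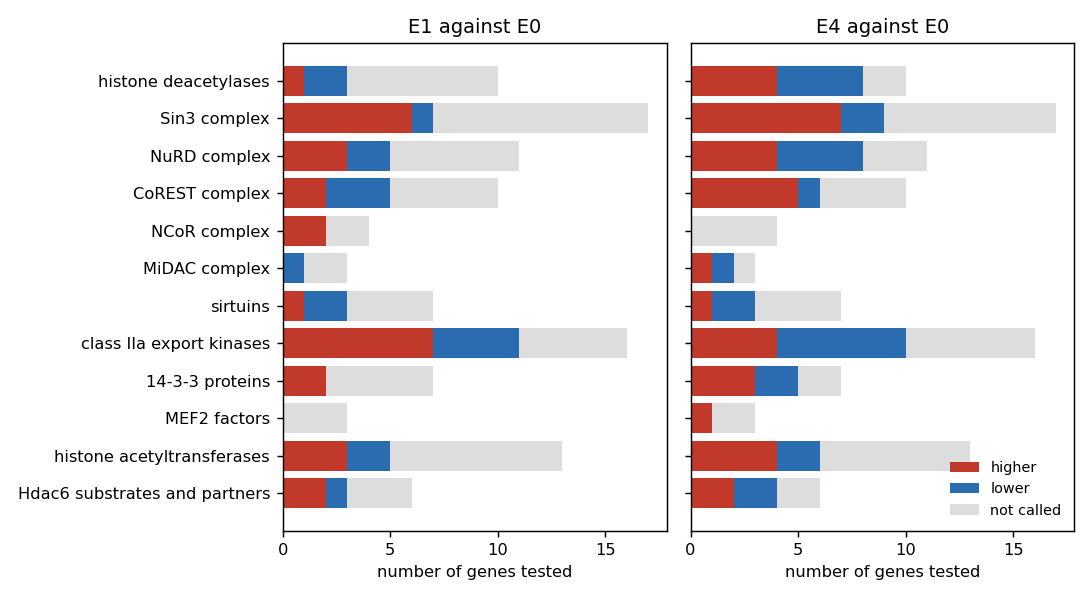
Bars give the number of genes tested in each list (x axis) that were higher (red), lower (blue) or not called (grey) in E1 (left) and E4 (right) against E0. Of the 10 deacetylases 3 were called in E1 and 8 in E4.

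Genes that control class IIa enzymes were read as well. Of 16 kinases that can drive these enzymes out of the nucleus, or belong to the same kinase families, 7 rose and 4 fell in E1, and 4 rose and 6 fell in E4. That is 68.75% and 62.5% called, beside 35.5% and 39% of all genes tested. Sik1 rose 7.16-fold in E1 (2.84 ± 0.19) and 2.53-fold in E4 (1.34 ± 0.15) in the authors' deposited table, while Camk4 rose in E1 (1.14 ± 0.14) and fell in E4 (-0.33 ± 0.13) there. Of the 14-3-3 genes, 2 of 7 rose in E1, among them Ywhaz at 0.95 ± 0.08, and 3 rose and 2 fell in E4, with Ywhah at -0.65 ± 0.08, in the authors' deposited table. The shares of 14-3-3 genes called were 28.6% in E1 and 71.4% in E4. Of the MEF2 genes, to whose proteins class IIa enzymes bind, 3 were tested. None of them was called in E1, where Mef2a, Mef2c and Mef2d stood at -0.11 ± 0.11, -0.18 ± 0.12 and -0.10 ± 0.11 in the authors' deposited table, and Mef2d rose in E4 (0.47 ± 0.10).

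The NAD-dependent deacetylases, the sirtuins, had 1 gene raised and 2 lowered of 7 in E1 and in E4 (42.9% called at each time). Sirt1 rose at both times (0.70 ± 0.20 and 0.54 ± 0.15), and Sirt3, of mitochondria, fell at both (-0.56 ± 0.16 and -0.62 ± 0.11), in the authors' deposited table. Of 13 histone acetyltransferase genes found, 3 rose and 2 fell in E1, and 4 rose and 2 fell in E4. That is 38.5% and 46.2% called, beside 35.5% and 39% of all genes tested. Crebbp, the coactivator that acetylates histones at active enhancers, stood at 0.76 ± 0.14 in E1 and 0.33 ± 0.11 in E4, and Clock at 0.60 ± 0.14 and 0.52 ± 0.13, in the authors' deposited table. Of 6 substrates and partners of Hdac6, Hsp90aa1 and Hsp90ab1 rose in E1 and in E4 and Cttn fell in E1 and in E4 in the authors' deposited table. Atat1, the acetyltransferase that opposes Hdac6 on tubulin, was not called in E1 (0.19 ± 0.17, adjusted p = 0.43) and fell in E4 (-0.41 ± 0.13) in the authors' deposited table.

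Markers of cell types moved beside these results, and in whole tissue fewer cells of a type and less RNA per cell cannot be told apart. Over all genes tested, 20.6% rose and 15% fell in E1, and 20.7% rose and 18.3% fell in E4. Of 12 granule neuron markers 2 rose and 9 fell in E1, and 3 rose and 7 fell in E4, with summed levels of 29468 in E0, 21003 in E1 and 24160 in E4 (normalised counts, not per kb). Of 12 GABAergic interneuron markers 7 rose in E1, and 2 rose and 1 fell in E4 (8061, 11783 and 8404). Of 12 endothelial markers 5 rose and 2 fell in E1, and none was called in E4 by the authors' DESeq2 test (1888, 3492 and 1818). Of 12 astrocyte markers 8 fell in E1, and 1 rose and 2 fell in E4 (71576, 63600 and 69031). Oligodendrocyte markers had 2 falls of 11 in E1 and no call in E4 (10418, 8398 and 9851). Microglial markers had 4 falls in E1 and 2 in E4 of 12 (5130, 3739 and 4684). Markers of neural progenitors and immature neurons, read as 1 list, had 2 rises and 1 fall at each time (2118, 3510 and 3515). Some of these sums rested on 1 gene. Without Sox11, which went from 464 in E0 to 2232 in E4, the other 11 markers of the progenitor and immature neuron list summed to 1654 in E0 and 1284 in E4, the opposite direction. The rises of that list in E1 were Sox11, to 1601, and Dcx, from 212 to 706. Without Sox11 the other 11, with Dcx among them, summed to 1910 in E1. The sum of GABAergic markers in E4 also turned direction when Gad1, which moved most, was left out. No marker of these lists was listed at 0 in both tables, and their part in the changes of the deacetylase genes was not tested.

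As a check of stimulation, Fos stood at 4.64 ± 0.21 in E1 and 0.51 ± 0.30 in E4 in the authors' deposited table, Arc at 6.65 ± 0.14 and 3.41 ± 0.33, and Egr1 at 3.72 ± 0.16 and 0.71 ± 0.12. Depth was estimated from genes with a single read, whose mean counts recur at fixed values, and came to about 6140000 to 10960000 reads in genes per E0 library, 1940000 to 4760000 per E1 library and 10020000 to 13550000 per E4 library. The SEs of the 10 members were 0.11 to 0.29 in E1 and 0.10 to 0.20 in E4, with the larger SE in E1 for each of the 10, so that a change of the size seen for Hdac3, Hdac5 or Hdac6 in E4 was harder to detect in E1.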

How the data were processed

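Per the submitters' processing notes (without versions), the authors used TopHat2 and DESeq2 on the mm9 build for 9 libraries of dentate gyrus total RNA. There were 3 libraries per group by the sample titles. For the counting program, the annotation and strand use, nothing is given in the sources used here. The deposited signal is the mean of counts over size factors in a comparison, per the file headers, with its own scale in each table. The authors' log2 fold change, its SE, the score (fold change over SE), p-value and adjusted p-value were used as deposited. They were computed by the authors over all genes. Both tables compare with the same group, taken as E0. The labels do not say more of the mice than their strain and age, so p-values measure the spread between these libraries.

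Levels assume equal group sizes and unshrunken fold changes: the E0 mean is the summed mean of both groups over 1 plus the fold. The E1 table was scaled by 1.89, the median E0 ratio over the 9818 genes whose mean count reached 50 in each, where the median difference between tables was then 0.493%. Intervals are 1.96 SEs. The test of E4 against E1 was tried on simulated data with a shared reference group, in which the deposited SEs were taken as true. That trial cannot show whether those SEs are right. Python 3.11.15, SciPy 1.17.1 and GENCODE M21 lengths (GRCm38, basic set) were used.

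Members and lists were chosen with earlier results of these data known. Named genes are all members, up to 4 genes per list with the smallest adjusted p in each table, Fos, Arc and Egr1, and the 3 genes nearest to the member with the largest change. Hdac10 and Chd5 were added after their values were seen. Of 17 acetyltransferase symbols, 4 were older names of others, and 1 gene of the partner lists and 1 of the marker lists are not reported here and are in no count of them. Alternatives were other thresholds, adjustment sets, centring, and removing a fitted dependence on transcript length and GC.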

Additional observations from a re-analysis of the deposited data

Results flagged for a closer look

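The change against E0 differed between E1 and E4, by the test of the difference itself, for 4 of the 10 members (40%), where 36.7% of all 12769 genes were called in the same test, a share close to it. The log2 difference of E4 from E1 was 0.95 for Hdac2, which fell in E1 and rose in E4, and -1.43 for Hdac9, which rose in E1 and fell in E4. It was -1.28 for Hdac11 and -0.72 for Hdac4, neither of which was called in E1 and both of which fell in E4. The fold changes come from tables that share the E0 libraries, and E1 libraries were the shallowest.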

How the results depend on the processing

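No paired analysis was possible because the tables hold no value per library, and for the same reason no replicate could be left out. Of the 10 members 3 were called in E1 and 8 in E4. With a log2 fold change of at least 0.5 also required, 4 members remained called in E4, 0 higher and 4 lower, and 2 in E1. Adjusted p-values below 0.01 left 3 calls in E1, 6 in E4 and 3 in E4 against E1. The shares of all genes called at these stricter settings were not computed, so these counts have no background beside them. Without the authors' filter (adjusted p = 0.05021) or after centring on the median (0.21, adjusted p = 0.077) Hdac3 was not called in E4. With the trend on transcript length and GC content removed, Hdac11 was called higher in E1 (0.34, adjusted p = 0.0092), which made 2 higher and 2 lower there. With the larger of both SEs as error, Hdac5 was higher in E4 than in E1 (adjusted p = 0.032) and 5 members were called. No member changed direction on a called value under the alternatives run. Over the adjustment, centring, trend and SE settings, 126 of 130 gene values stayed on their side of the 0.05 threshold. That count leaves out the stricter thresholds on adjusted p and fold change. Dividing by all annotated exons, an alternative added after seeing the data, lowered the summed level of the members in E0 from 1919 to 1259.5 per kb and kept Hdac11 first. The SEs of the members were larger in E1, whose libraries were the shallowest, and the part of depth in this was not tested.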
